A study of Mus musculus with 6 samples.

Results

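Genes of the cell cycle and of DNA replication were described in mouse retinal ganglion cells (RGCs), the neurons that send the axons of the optic nerve. The group was a list of 39 genes taken by gene symbol: 13 genes of S phase, 14 of mitosis, and 12 cyclins, cyclin-dependent kinases and regulators of G1. Of these, 35 were found in a table of 17027 gene symbols, through 75 of its 50829 isoforms. Levels of Cdt1, Ccnd2, Cdk6 and E2f1 were not analysed here.

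The cells came from wild-type (WT) mice of strain C57/6NCrl, and no group carried a transgene or received a treatment. The groups were 2 libraries from embryonic day 18 (E18), 2 from postnatal day 5 (P5) and 2 from adults of 8 weeks. RGCs were taken by immunopanning, in which cells stick to a dish coated with antibody to Thy1, a surface antigen of RGCs. Other antibodies had first removed macrophages and, per the sample protocol but not the series text, amacrine cells. Whether both libraries of an age stem from different animals is not told by the labels, and p-values then measure only the spread between these samples, which may be technical. The 2 columns of P5 carry the same header, so that these libraries have no number and are given as library a and library b.

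Dividing cells copy their DNA in S phase and part the copies in mitosis. Cyclins of the D and E types, with their kinases, release the E2F factors from the retinoblastoma protein in G1, and E2F factors then switch on genes of DNA replication. RGCs are made from dividing retinal progenitors before birth and do not divide afterwards, so that transcripts of mitosis in a retinal preparation are commonly read as a mark of progenitors, while several G1 regulators are also present in neurons that have left the cycle.

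Values are FPKM, fragments scaled to the length of the transcript and to the size of the library, summed over the isoforms of each gene. Changes are differences of log2(FPKM + 1), which understate the fold change of genes at low levels. With limma, 14390 genes were tested, those with a mean of at least 1 FPKM across all 6 libraries. A change was called at an adjusted p (Benjamini-Hochberg) under 0.05. The table lists only isoforms that reached 1 FPKM in some library, which matters for genes near that level: 15 of the 35 genes were listed through E18 replicate 1 alone. These were Mcm3 and Cdc6 of S phase, Cdk2, and 12 of the 14 genes of mitosis. Of the 35, 23 were tested, with 10 of S phase, 5 of mitosis and 8 of G1. The depth of each library is unknown, because the table gives no read counts, and replicate spread is the only measure of precision.

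The libraries labelled as RGCs held the markers of that cell type at every age, at summed levels of 2734 and 3211 FPKM in E18 replicates 1 and 2, 3401 and 3119 FPKM in libraries a and b of P5, and 491 and 294 FPKM in replicates 1 and 2 of Adult. None of the 12 RGC markers was listed at 0 in any library. All 12 fell from P5 to Adult, with a median log2 change of -3.59. Markers of other retinal cells were higher in Adult: the 10 rod markers summed to 1.45 to 3.79 FPKM in the 4 younger libraries and to 5491 and 656 FPKM in Adult replicates 1 and 2, the 8 amacrine markers to 349 to 433 FPKM and then 1447 and 1908 FPKM, and the 8 listed Müller glia and astrocyte markers to 133 to 150 FPKM and then 1108 and 1275 FPKM. Of 10 macrophage markers 1 was listed, C1qa, at no more than 1.25 FPKM. The part of these cell types in the Adult values below was not tested, and in these bulk samples fewer cells that carry a transcript and less transcript per cell cannot be told apart.

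E18 replicate 1 stood apart from E18 replicate 2 in this group of genes. Of the 35 listed genes, 33 were higher in replicate 1, the exceptions being Rb1 and Cdkn1a, and 29 had their highest value of all 6 libraries there, against 12% of all genes tested. Because 15 of them were listed through that library alone, the 20 others are the fairer count, and 14 of these 20 were highest in E18 replicate 1. Summed levels of the mitosis genes were 59.6 and 6.55 FPKM in E18 replicates 1 and 2, and the 4 later libraries lay between 3.43 and 9.08 FPKM, on both sides of replicate 2, and 12 of these 14 genes were listed through E18 replicate 1 alone. Summed S phase genes were 149 and 95.1 FPKM, and all 4 later libraries were lower, between 63.5 and 74.7 FPKM. Summed G1 genes were 246 and 195 FPKM, also above the later libraries, which lay between 110 and 149 FPKM. For single genes, E18 replicate 2 was no higher than the higher P5 library in 13 of 14 genes of mitosis, 5 of 12 of S phase and 3 of 9 of G1, of which 12, 2 and 1 were listed through E18 replicate 1 alone, so that the groups are not compared on this count.

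Among the 23 tested genes, the median difference of log2(FPKM + 1) between E18 replicates 1 and 2 was 0.55. Replicate 1 was the higher in 21 of the 23, against 40.4% of all genes tested, whose median was -0.04. It was higher by a log2 difference of at least 1 in 7 of the 23, against 1.31% of all genes. The medians were 2.11 for the 5 mitosis genes, 0.65 for the 10 S phase genes and 0.08 for the 8 G1 genes. Of the mitosis genes, Top2a, Cdk1 and Birc5 passed the filter on low values through E18 replicate 1 and so had to be higher there. Over the 20 genes with a mean of at least 1 FPKM in the 5 other libraries, the median was 0.48 and replicate 1 was the higher in 18, against 39.9% of all genes so chosen, and by a log2 difference of at least 1 in 4, against 1.09%. Aurka and Ccna2, the mitosis genes among them, differed by 0.89 and 1.76, and the other groups kept their genes and medians. The same median for the 23 genes was -0.09 at P5 (library a against b) and -0.02 in Adult (replicate 1 against 2). With 1 library on each side this difference has no test.

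Markers of other cells moved with it. All 12 tested markers of retinal progenitors were higher in E18 replicate 1, by a median of 2.0, and the list of 14 summed to 134 and 38.1 FPKM in E18 replicates 1 and 2, 57.4 and 64.1 FPKM at P5, and then 488 and 603 FPKM in Adult. The Adult sums were mostly Dkk3, at 386 and 516 FPKM. Other progenitor markers were low outside E18 replicate 1 and Adult: Sox2 was 24.3 FPKM in E18 replicate 1, 0.502 in replicate 2, 0.451 and 0.707 at P5, and then 6.32 and 8.39 in Adult, while Fgf15 was 12.2 FPKM in E18 replicate 1 and at most 0.508 in every other library (these were picked after their values were seen). Markers of neurogenic cells were higher in E18 replicate 1 in 7 of 9 tested genes, with a median difference of 1.01, and amacrine markers in 6 of 8, with 0.80. With the filter on the 5 other libraries these were 10 of 10 progenitor markers (median 2.0), 6 of 8 neurogenic markers (0.67) and 6 of 8 amacrine markers (0.80). RGC markers went the other way, lower in E18 replicate 1 in 12 of 12, with a median of -0.18, but 3 of the 12 were higher there after scaling to TPM, to protein-coding genes or by quantiles, with medians of -0.11, -0.10 and -0.09. Other lists were also higher in E18 replicate 1 than in replicate 2. The listed endothelial and pericyte markers summed to 9.62 and 1.90 FPKM, and rod markers to 3.79 and 1.45. Müller glia and astrocyte markers summed to 150 and 143 FPKM, and C1qa was 0.175 and 0.130. The 8 bipolar markers summed to 244 and 253 FPKM, but this was mostly Isl1, also an RGC marker, at 238 and 245 FPKM. Their median was 0.178 FPKM in E18 replicate 1 and 0.0575 in replicate 2, so no direction is given for them. The part of progenitors or of any of these cells in the E18 values was not tested.

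**Figure D1:**
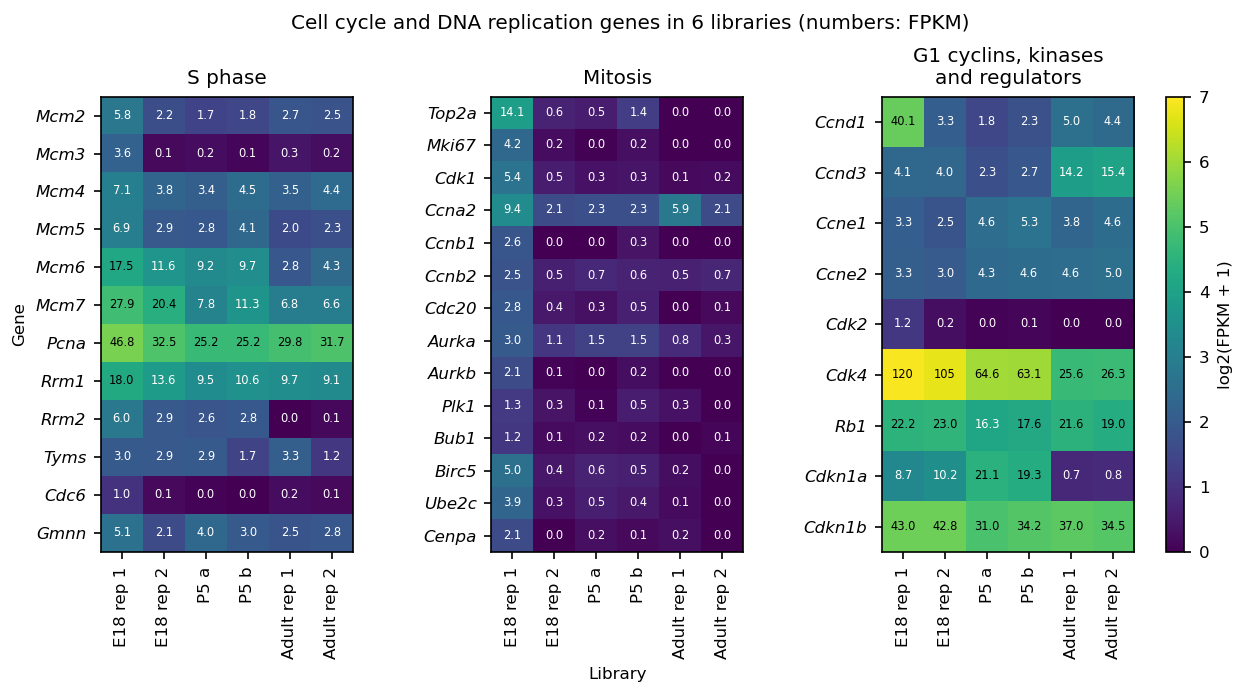
Levels of the 35 listed genes in the 6 libraries, coloured by log2(FPKM + 1) and with the FPKM written in each cell, in columns for S phase, mitosis and G1. E18 replicate 1 is the brightest column for all 14 mitosis genes, of which 12 were listed through that library alone. Cdk4 steps down with age and Ccnd3 is highest in Adult.

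**Figure D2:**
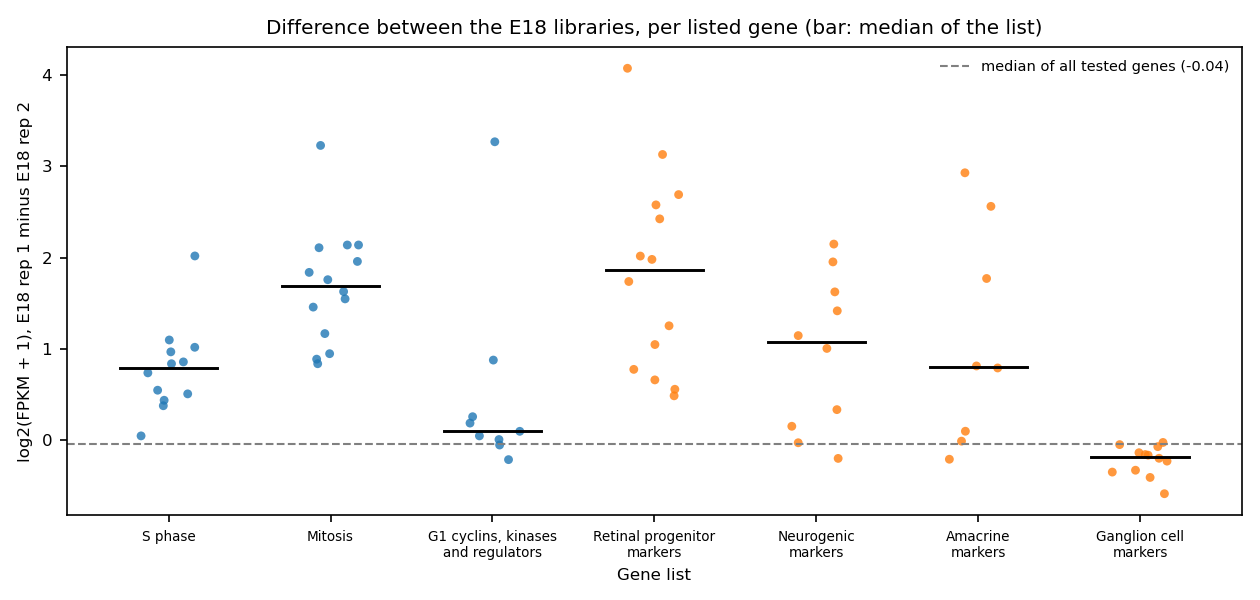
Difference of log2(FPKM + 1) between E18 replicates 1 and 2 for each listed gene (points) of 3 groups of cell cycle genes (blue) and 4 marker lists (orange), with the median of each list as a bar and the median of all tested genes, -0.04, as a dashed line. Mitosis genes and retinal progenitor markers lie well above that line and RGC markers near it or below. Of the 14 mitosis genes, 12 were listed through E18 replicate 1 alone and so had to be higher there. The points are all listed genes, while the line is over tested genes only.

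Across ages, few of these genes passed the test between E18 and P5 and more did in Adult, as was so for all genes tested. From P5 to Adult, these genes were called less often than all genes, higher or lower, in the deposited FPKM. From E18 to Adult they were called higher less often, and the share called lower was near that of all genes. From E18 to P5, 1 of 23 tested genes rose (Cdkn1a) and 2 fell (Cdk4, Mcm7), where 5.52% of all genes rose and 4.95% fell. Their median change was -0.54, against -0.03 over all genes, and 19 of 23 changes were negative. Values of the 2 ages did not overlap in 3 genes that were higher and 12 that were lower at P5, against 29.0% and 34.2% of all genes. Without E18 replicate 1 the median was -0.20 and no gene was called. Without E18 replicate 2 the median was -0.82, which includes Top2a, Cdk1 and Birc5, genes that passed the filter on low values through E18 replicate 1. No gene was called without P5 library a either, 0 rose without P5 library b, and 1 fell when Adult replicate 1 or 2 was left out.

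From P5 to Adult, 1 gene rose (Ccnd3) and 4 fell (Cdk4, Cdkn1a, Mcm6, Rrm2), where 26.2% of all genes rose and 33.7% fell. The median change was -0.17, against -0.07 over all genes. The ages did not overlap in 7 genes that were higher and 12 that were lower in Adult, against 35.6% and 43.1% of all genes. Leaving out E18 replicate 1 or replicate 2 gave 2 genes as higher and 5 as lower, Ccnd1 joining Ccnd3 (adjusted p = 0.0163 and 0.0137 for Ccnd1). From E18 to Adult, 2 genes rose (Ccnd3, Ccne2) and 7 fell (Cdk4, Cdkn1a, Mcm6, Mcm7, Rrm1, Rrm2, Aurka), where 25.3% of all genes rose and 34.4% fell. Here the median change was -0.69, against -0.11 over all genes, and the ages did not overlap in 3 higher and 14 lower genes, against 37.1% and 47.0%. Without E18 replicate 1 that median was -0.31, and without E18 replicate 2 it was -1.18, against -0.12 and -0.11 over all genes. The calls also changed when libraries were left out. The 3 comparisons share libraries, so their counts are not independent of each other.

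The split of calls depended on how libraries were scaled to each other, because Adult libraries summed to more FPKM (800485 and 854713) than the younger 4 (485423 to 550826). Rescaling to TPM moved the median of all genes to -0.76 for Adult against P5, -0.68 for Adult against E18 and 0.08 for P5 against E18, and rescaling to protein-coding genes moved the Adult medians to 0.21 in both comparisons. For Adult against P5 the genes of this group then split as 1 higher and 12 lower with TPM, 3 and 5 after quantile normalization, and 4 and 4 with the protein-coding sum. For Adult against E18 they split as 1 and 12, 1 and 8, and 3 and 5, and for P5 against E18 as 2 and 2 with TPM. Relative to the median of all genes, the median change of the 23 genes stayed between -0.52 and -0.47 for P5 against E18 and between -0.61 and -0.55 for Adult against E18 under these scalings, and between -0.30 and -0.04 for Adult against P5. All 14390 genes tested split as 3767 higher and 4843 lower from P5 to Adult, and with TPM as 1709 and 8603. After quantile normalization they split as 3703 and 4627, and with the protein-coding sum as 5282 and 3347. From E18 to Adult all genes split as 3638 and 4950, and with TPM as 2047 and 8138. There quantile normalization gave 3831 and 4788, and the protein-coding sum 5396 and 3323. From E18 to P5 with TPM, 1479 of all genes rose and 466 fell.

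**Figure D3:**
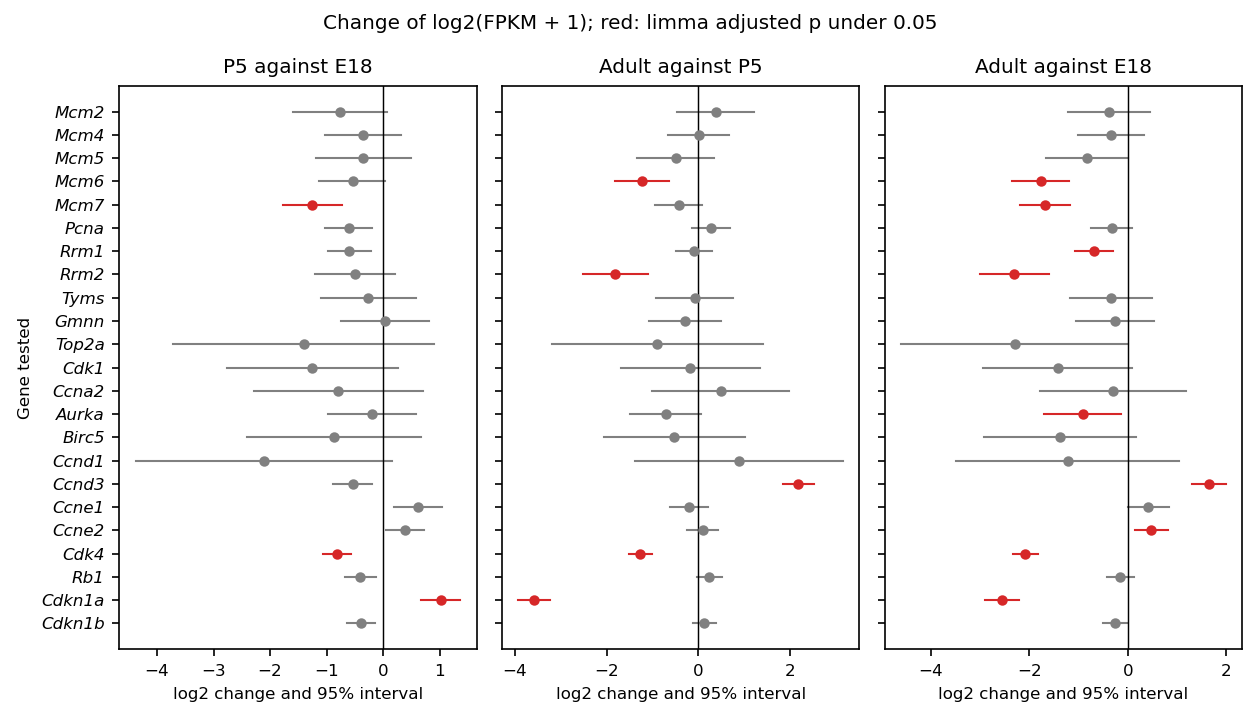
Change of log2(FPKM + 1) for the 23 tested genes in the 3 comparisons, each point with its 95% interval from limma, in red where the adjusted p is under 0.05. Intervals are widest for Top2a, Ccnd1, Cdk1, Ccna2 and Birc5, whose E18 libraries differ most.

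S phase genes were led by Pcna, the sliding clamp that holds DNA polymerases on their template. Pcna was 46.8 and 32.5 FPKM in E18 replicates 1 and 2, 25.2 in both P5 libraries, and 29.8 and 31.7 in Adult replicates 1 and 2. Both E18 libraries lay above all others in the deposited FPKM, and Adult lay above P5, but the directions with Adult depended on scaling. Between P5 and Adult the change of Pcna was 0.28, with TPM -0.45 (adjusted p = 0.0709) and with the protein-coding sum 0.60 (adjusted p = 0.0383), and with that sum the change from E18 to Adult was 0.0277 (adjusted p = 0.912). The change from E18 to P5 was -0.61 (95% interval -1.03 to -0.19) and missed the threshold, with an adjusted p of 0.0756. Pcna thus stayed at 25.2 FPKM or more in every library.

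The genes Mcm2 to Mcm7 encode the helicase that is loaded at replication origins and opens the double helix, and its subunits differed in their time course. Mcm7 (chr5:138164583-138172422, GRCm38, minus strand) was 27.9 and 20.4 FPKM in E18 replicates 1 and 2, 7.84 and 11.3 in P5 libraries a and b, and 6.85 and 6.61 in Adult replicates 1 and 2. The 3 ages did not overlap. It fell 2.52-fold from 24.1 ± 5.35 FPKM (SD, n = 2) at E18 to 9.59 ± 2.47 at P5, a log2 change of -1.25 (SE 0.21, 95% interval -1.77 to -0.73, adjusted p = 0.0235). That call was lost in 6 of 16 alternatives, with adjusted p up to 0.19 without E18 replicate 1. The fall from E18 to Adult was -1.69 (adjusted p = 0.00087) and was called in all 17 alternatives, and the change from P5 to Adult, -0.43, was not called (adjusted p = 0.125).

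Mcm6 (chr1:128331590-128359664, minus strand) was 17.5 and 11.6 FPKM at E18, 9.23 and 9.71 at P5, and then 2.76 and 4.31 in Adult. Its libraries also kept the order of the ages, with the wider step between P5 and Adult. It fell 2.68-fold from P5 to Adult, from 9.47 ± 0.338 to 3.54 ± 1.1 FPKM (log2 change -1.23, adjusted p = 0.00548), a call that stood in all 16 alternatives. The change from E18 to P5 was -0.54 and was not called (adjusted p = 0.194).

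Of the other Mcm genes, Mcm2, Mcm4 and Mcm5 did not pass in any comparison, and Mcm3 was not tested. Mcm2 was 5.81 FPKM in E18 replicate 1 and between 1.66 and 2.66 in the other 5 libraries. Mcm4 was 7.08 FPKM in E18 replicate 1 and between 3.37 and 4.51 in the others, and Mcm5 was 6.93 FPKM there and between 1.97 and 4.07 elsewhere. Mcm3, listed through that library alone, was 3.62 FPKM in E18 replicate 1, 0.137 in replicate 2, 0.178 and 0.0673 at P5, and then 0.321 and 0.190 in Adult. For these 4 subunits E18 replicate 2 lay within the range of the later libraries, whereas for Mcm6 and Mcm7 both E18 libraries lay above it.

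Ribonucleotide reductase makes the deoxyribonucleotides for DNA synthesis, and its subunits differed. Rrm2 (chr12:24708241-24714146, plus strand), the subunit known to be made mainly in S phase, was 5.98 and 2.91 FPKM at E18, 2.59 and 2.81 at P5, and then 0.000107 and 0.113 in Adult replicates 1 and 2. It was present in all 4 younger libraries and near 0 in both Adult ones, so no fold is given. It fell from P5 to Adult (log2 change -1.81, 95% interval -2.52 to -1.10, adjusted p = 0.00243) and from E18 to Adult (-2.31, adjusted p = 0.000851). Both calls stood in every alternative in which it was tested, 15 and 16. Rrm1, the large subunit, was 18 and 13.6 FPKM at E18, 9.53 and 10.6 at P5, and then 9.69 and 9.05 in Adult, with both E18 libraries above the rest. It fell 1.69-fold from E18 to Adult (log2 change -0.69, adjusted p = 0.0104), a call lost in 3 of 17 alternatives, among them the one without E18 replicate 1 (adjusted p = 0.0791).

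The remaining S phase genes showed no called change. Tyms, thymidylate synthase, was 2.99 and 2.85 FPKM at E18, 2.93 and 1.73 at P5, and then 3.32 and 1.22 in Adult, so that its ages overlapped and replicate 1 was the higher in Adult. Gmnn, which encodes geminin, the inhibitor of replication licensing, was 5.07 and 2.11 FPKM at E18, 4.01 and 2.96 at P5, and then 2.50 and 2.76 in Adult. Cdc6, a loader of the helicase, was 1.04 FPKM in E18 replicate 1 and at most 0.183 in the other libraries. Over the 10 tested S phase genes, none rose in any comparison, and 1 fell from E18 to P5 (0 when any library other than P5 library b was left out), 2 between P5 and Adult, where 33.7% of all genes fell, and 4 between E18 and Adult (7 without E18 replicate 2), where 34.4% did.

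Promoter windows of 250 bases before the start site were given for 31 of the 39 genes in RefSeq (34 windows, GRCm38.p6), among them Cdt1, Cdk6 and E2f1, whose levels were not analysed here. E2F factors are known to bind words such as TTTCCCGC, TTTGGCGC, TTTCGCGC or TTTGCCGC, which were searched on both strands. At least 1 of them lay in 33.3% of 12 S phase windows (4 windows, of Cdc6, Mcm5, Mcm6 and Mcm7), 8.33% of 12 mitosis windows (Cdk1), 10% of 10 G1 windows (Cdk2), and 1.86% of all 32851 windows. The match is a description of letters, and no binding was measured. The window of Mcm6 is shown because it held 3 such words and its gene was called in both comparisons with Adult. Its 150 bases before the start, at chr1:128359706-128359855 on the minus strand, are printed with the E2F words and CCAAT (or ATTGG on the other strand) in capitals, and the words 106 and 110 bases before the start overlap.
Mcm6: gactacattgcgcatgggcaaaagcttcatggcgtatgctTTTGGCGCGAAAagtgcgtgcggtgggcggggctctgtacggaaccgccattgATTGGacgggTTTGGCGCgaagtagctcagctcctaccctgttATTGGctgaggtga

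Genes of mitosis were found at more than 1 FPKM almost only in E18 replicate 1, which the listing largely fixed in advance. Of the 14 genes, 12 were listed through that library alone, Top2a and Mki67 among them, so this is no independent result. Top2a (chr11:98992943-99024189, minus strand), the topoisomerase that untangles sister chromosomes, was 14.1 FPKM in E18 replicate 1, 0.611 in replicate 2, 0.451 and 1.4 at P5, and listed at 0 in both Adult libraries. Mki67, the proliferation marker Ki-67, was 4.19 FPKM in E18 replicate 1, 0.173 in replicate 2, 0.0335 and 0.211 at P5, and at most 0.000102 in Adult. Replicate 1 was 23.1 times replicate 2 for Top2a and 24.1 times for Mki67, and replicate 2 lay within the P5 range for both genes.

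Cdk1, the kinase that drives entry into mitosis, was 5.40 FPKM in E18 replicate 1, 0.482 in replicate 2, 0.262 and 0.321 at P5, and then 0.139 and 0.158 in Adult. Unlike Top2a, it kept the order of the ages, although all values outside E18 replicate 1 were under 0.5 FPKM. Its cyclins Ccnb1 and Ccnb2 were 2.64 and 2.47 FPKM in E18 replicate 1, and in the other libraries Ccnb1 was at most 0.299 and Ccnb2 between 0.545 and 0.740 FPKM. Birc5 (survivin) and Ube2c, the ubiquitin-conjugating enzyme of the anaphase-promoting complex, were 5.00 and 3.88 FPKM in E18 replicate 1 and at most 0.614 and 0.499 elsewhere. Cdc20, Aurkb, Plk1, Bub1 and Cenpa, which act at the spindle checkpoint, the kinetochore and in cytokinesis, were 1.20 to 2.84 FPKM in E18 replicate 1 and at most 0.540 FPKM in any other library.

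Only Aurka and Ccna2 of this group were also listed through other libraries. Aurka, a kinase of the spindle poles, was 2.96 and 1.14 FPKM at E18, 1.53 and 1.54 at P5, and then 0.775 and 0.348 in Adult. Both Adult libraries were the lowest, and it fell from E18 to Adult by 0.91 on the log2 scale (adjusted p = 0.049). That call was lost in 7 of 16 alternatives, with adjusted p up to 0.215 without E18 replicate 1. Ccna2, the cyclin of S phase and G2, was 9.43 and 2.08 FPKM at E18, 2.30 and 2.25 at P5, and then 5.92 and 2.06 in Adult, so that replicate 1 was the higher at both E18 and Adult. Ccna2 shares up to 428 exonic bases with Exosc9 on the opposite strand, a gene at a mean of 26.6 FPKM, and no source used here states that reads were counted by strand.

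Between E18 and P5 none of the 5 tested mitosis genes was called by limma (0 also at an unadjusted p under 0.05), with a median change of -0.87, which turned to 0.20 without E18 replicate 1. Top2a, Cdk1 and Birc5 passed the filter on low values through E18 replicate 1, so this median is no independent sign of a fall. For Top2a the change was -1.40 with an interval of -3.71 to 0.90 (adjusted p = 0.372), and for Cdk1 -1.25 with -2.77 to 0.26 (adjusted p = 0.24). With E18 replicate 1 as the only E18 library, their changes were -3.01 and -2.31, and without it they were 0.21 and -0.20. Both genes were listed and passed the filter through E18 replicate 1, so a fit on that library alone cannot test a fall. The size of the change therefore turned on which E18 library was used.

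Promoters of mitosis genes are known to be held by factors that bind CCAAT, spaced in repeats, and by a repressor complex that binds an element called CHR (searched as TTTGAA or TTCGAA). In the 12 mitosis windows, CCAAT on either strand was found in 91.7% (11 windows) and at least 2 copies in 83.3% (10 windows), against 33.8% and 10.1% of all windows. CCAAT was found in 75% of the 12 S phase windows and 30% of the 10 G1 windows. A CHR word was found in 50% of the mitosis windows (6), 16.7% of the S phase windows, none of the 10 G1 windows and 17.1% of all windows. Ccnb2, Cdk1 and Top2a are shown because their windows hold CCAAT in repeats, and they were picked after their values were seen. The CHR word of Ccnb2 begins 167 bases before the start, outside the printed bases. Each is the 150 bases before the start on the minus strand of GRCm38.p6, at chr9:70421555-70421704, chr10:69352913-69353062 and chr11:99024190-99024339, with CCAAT, CHR and E2F words of either strand in capitals. In Ccnb2 the copies of CCAAT begin 87, 54 and 21 bases before the start.
Ccnb2: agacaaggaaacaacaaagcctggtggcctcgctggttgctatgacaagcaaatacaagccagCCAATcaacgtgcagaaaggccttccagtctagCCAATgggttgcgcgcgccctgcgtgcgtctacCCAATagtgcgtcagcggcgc
Cdk1: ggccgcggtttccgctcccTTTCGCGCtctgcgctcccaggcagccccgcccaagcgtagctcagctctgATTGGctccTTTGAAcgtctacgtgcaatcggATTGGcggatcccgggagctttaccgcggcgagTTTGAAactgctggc
Top2a: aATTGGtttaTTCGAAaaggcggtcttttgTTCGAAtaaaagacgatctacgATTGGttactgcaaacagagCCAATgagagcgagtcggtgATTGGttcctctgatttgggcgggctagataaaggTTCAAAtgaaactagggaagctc

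Genes of G1 behaved differently from each other, and most stayed well above 1 FPKM in every library. Cdk4 (chr10:127063534-127067920, plus strand), the kinase partner of the D cyclins, had the highest level of all 35 genes in each of the E18 and P5 libraries. That level is summed over isoforms, some of which are not annotated as protein-coding. It was 120 and 105 FPKM in E18 replicates 1 and 2, 64.6 and 63.1 in P5 libraries a and b, and 25.6 and 26.3 in Adult replicates 1 and 2. Replicates lay close together at each age and the ages did not overlap. Cdk4 fell 1.77-fold from 113 ± 10.5 (SD, n = 2) to 63.9 ± 1.08 FPKM between E18 and P5, a log2 change of -0.81 (SE 0.10, 95% interval -1.06 to -0.56, adjusted p = 0.0129). It fell a further 2.46-fold to 25.9 ± 0.473 FPKM in Adult (log2 change -1.27, adjusted p = 0.000189).

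The calls for Cdk4 with Adult stood in all alternatives, but the call between E18 and P5 was lost without E18 replicate 1 (adjusted p = 0.128), without E18 replicate 2 (0.0633) or when library a of P5 was left out (0.0839), with changes between -0.90 and -0.72 in these. Cdk4 shares up to 641 exonic bases with Tspan31 on the opposite strand (mean 32.4 FPKM). Other genes of the group also lie over exons of the opposite strand, Mcm7 with Ap4m1 (247 bases) and Cops6 (64), Ccnd3 with Bysl (361), Ccne2 with Ints8 (474) and Rb1 with Rcbtb2 (383), and reads of such pairs cannot be told apart without strand. The promoter window of Cdk4 is shown as the contrast to those above: none of the E2F, CCAAT or CHR words was found in it, so the 150 bases before the start, chr10:127063385-127063534 on the plus strand, have no capitals, and no match says only that these letters are not in this window.
Cdk4: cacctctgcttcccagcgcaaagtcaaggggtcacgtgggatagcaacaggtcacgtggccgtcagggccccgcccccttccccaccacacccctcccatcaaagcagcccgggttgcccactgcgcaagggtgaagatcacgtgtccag

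The D cyclins went in different ways. Ccnd1 (chr7:144929931-144939925, minus strand) was 40.1 FPKM in E18 replicate 1, 3.26 in replicate 2, 1.82 and 2.34 at P5, and then 5.01 and 4.36 in Adult. Replicate 1 was 12.3 times replicate 2, the widest gap of the G1 genes, and the other 5 libraries were all within 1.82 to 5.01 FPKM. The change from E18 to P5 was -2.11 with an interval of -4.38 to 0.16 and was not called (adjusted p = 0.196). It was -0.47 without E18 replicate 1 (adjusted p = 0.434) and -3.74 without replicate 2 (adjusted p = 0.0139).

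Ccnd3 (chr17:47505051-47599691, plus strand), another D cyclin, was 4.14 and 3.96 FPKM at E18, 2.26 and 2.73 at P5, and then 14.2 and 15.4 in Adult. Its E18 libraries agreed closely and both Adult libraries were far above the rest. Ccnd3 rose 5.94-fold from 2.49 ± 0.331 at P5 to 14.8 ± 0.884 FPKM in Adult (log2 change 2.18, 95% interval 1.84 to 2.52, adjusted p = 9.61e-05) and 3.65-fold from E18 (log2 change 1.64, adjusted p = 0.000194). Both calls stood in all alternatives. The rise moved with the higher amacrine, rod and glial marker sums of the Adult libraries given above, and their part in it was not tested. Between Adult replicates 1 and 2, rod markers went from 5491 to 656 FPKM, and Ccnd3 differed by a log2 of -0.11.

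The E cyclins, which act with Cdk2 at the start of S phase, were lowest at E18 in the deposited FPKM. Ccne1 was 3.26 and 2.55 FPKM at E18, 4.63 and 5.35 at P5, and then 3.83 and 4.59 in Adult, and its change from E18 to P5 was 0.62 (adjusted p = 0.0733). From E18 to Adult the change of Ccne1 was 0.42, and -0.07 with TPM (adjusted p = 0.766). Ccne2 was 3.31 and 3.02 FPKM at E18, 4.30 and 4.59 at P5, and then 4.64 and 4.98 in Adult. The ages of Ccne2 did not overlap, and it rose 1.52-fold from E18 to Adult (log2 change 0.48, adjusted p = 0.0258), a call lost in 6 of 17 alternatives, with the sign turning under TPM (-0.0148, adjusted p = 0.941). Their kinase partner Cdk2 was 1.21 FPKM in E18 replicate 1 and at most 0.198 in the other libraries, and was listed through that library alone.

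The inhibitors of cyclin-dependent kinases differed too. Cdkn1a (p21; chr17:29090976-29100727, plus strand), which is induced by p53 and by stress, was 8.70 and 10.2 FPKM at E18, 21.1 and 19.3 at P5, and then 0.705 and 0.831 in Adult. P5 was the peak and Adult the low point, with no overlap between ages. Cdkn1a rose 2.13-fold from 9.47 ± 1.08 to 20.2 ± 1.27 FPKM between E18 and P5 (log2 change 1.02, SE 0.14, 95% interval 0.67 to 1.37, adjusted p = 0.0155). It then fell 26.3-fold to 0.768 ± 0.0889 FPKM in Adult (log2 change -3.58, adjusted p = 2.82e-05). The rise was lost when any library of E18 or P5 was left out (adjusted p between 0.0519 and 0.164, log2 change 0.91 to 1.13), and the fall stood in all 16 alternatives.

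Cdkn1b (p27), a stable inhibitor of postmitotic cells, was 43.0 and 42.8 FPKM at E18, 31.0 and 34.2 at P5, and then 37.0 and 34.5 in Adult. It stayed within 31.0 and 43.0 FPKM, and was not called in any comparison (change from E18 to P5 -0.39, adjusted p = 0.0647). Rb1, the retinoblastoma protein, was 22.2 and 23.0 FPKM at E18, 16.3 and 17.6 at P5, and then 21.6 and 19.0 in Adult, also with no call (E18 to P5 -0.40, adjusted p = 0.08). From P5 to Adult the changes of Rb1 and Cdkn1b were 0.24 and 0.13, and with TPM they were -0.48 and -0.61. Unlike the mitosis genes, these regulators differed by at most 0.05 on the log2 scale between the E18 libraries.

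**Figure D4:**
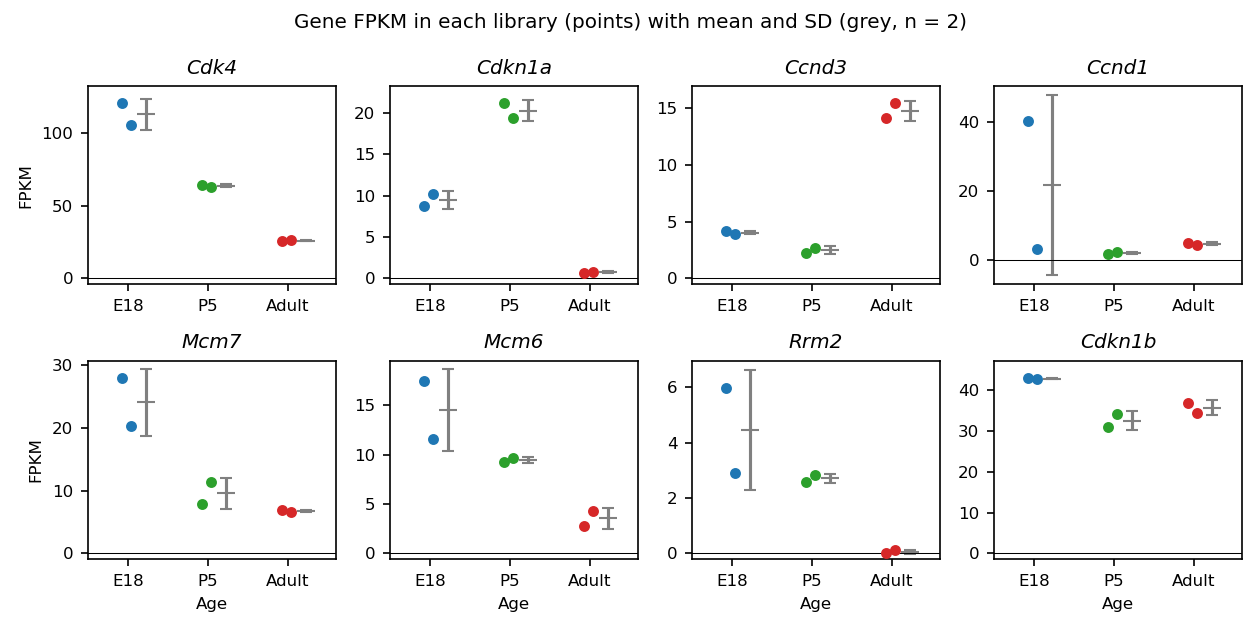
FPKM of 8 genes in each library (points) with the mean and SD of each age in grey (n = 2). Cdk4 steps down at each age, Cdkn1a peaks at P5, Ccnd3 is highest in Adult, and the SD of Ccnd1 at E18, 26.1 FPKM, comes from replicate 1 alone at 40.1 FPKM.

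At the level of isoforms, 37 isoforms of 22 of these genes were tested among 34941. From E18 to P5, 1 rose (the single isoform of Cdkn1a) and none fell, where 0.804% of all isoforms rose and 0.824% fell, and 18 of the 37 had an unadjusted p under 0.05 in limma, as did 21.9% of all isoforms. From P5 to Adult 2 rose and 9 fell, where 19.2% and 24.1% of all isoforms did, and from E18 to Adult 1 rose and 17 fell, where 17.9% and 26.8% did. Most of these 17 were isoforms of Cdk4 or Mcm7, so the count is not one of separate genes. Of the Cdk4 isoforms, the main one of 2053 bases went from 38.7 ± 0.0848 FPKM at E18 to 20.9 ± 4.83 at P5 and 9.21 ± 0.204 in Adult. From E18 to Adult its log2 change was -1.96, those of the isoforms of 924, 468 and 574 bases were -3.54, -3.10 and -2.98, and those of 1182 and 2038 bases -1.56 and -0.98, all called. The isoform of 752 bases was not called (-0.34, adjusted p = 0.1873), and the difference between isoforms was not tested. The isoforms of 468, 574, 752 and 2038 bases are annotated as retained intron, and that of 924 bases as nonsense-mediated decay. Among those tested, the steepest falls were thus in isoforms not annotated as protein-coding, but so were the smallest changes (2038 and 752 bases). For Cdkn1b the isoform of 2393 bases fell from E18 to Adult (-0.55, adjusted p = 0.0185). The isoform of 4552 bases was not called there (0.31, adjusted p = 0.1793). It rose from P5 to Adult (0.73, adjusted p = 0.01563), where the isoform of 2393 bases was not called (-0.19, adjusted p = 0.2774). Cdkn1b as a whole was not called, and a difference between its isoforms was not tested. Without any 1 of the 6 libraries no isoform was called from E18 to P5. The 17 isoforms that fell from E18 to Adult became 9 without E18 replicate 1 and 11 without Adult replicate 2, and the 2 that rose from P5 to Adult became 1 without P5 library a or Adult replicate 2. Isoforms of a gene share reads, and their split is an estimate.

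Other genes of the same processes were counted in 6 lists. Of 39 tested replication factors, none was called from E18 to P5 by limma (5 at an unadjusted p under 0.05, against 29.4% of all genes). Between P5 and Adult 3 rose and 18 fell, against 26.2% and 33.7% of all genes, with a median change of -0.39. Pole3, a subunit of the leading-strand polymerase, fell from 19.6 ± 1.77 to 8.73 ± 1.74 FPKM (log2 change -1.09, adjusted p = 0.00149), and Dut, the dUTPase, from 35.5 ± 2.25 to 17.4 ± 0.372 FPKM (-0.99, adjusted p = 0.000822). All 17 genes listed for the anaphase-promoting complex were tested, and 12 fell and none rose from P5 to Adult (33.7% and 26.2% of all genes), with a median of -0.52, as against 2 higher and 7 lower with the protein-coding sum. Among them Ube2s, which extends its ubiquitin chains, went from 58.8 ± 0.924 to 23.6 ± 3.29 FPKM (-1.29, adjusted p = 0.000283). Only Anapc2 of that list fell from E18 to P5 (-0.56, adjusted p = 0.0265).

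Of 22 tested genes of the spindle, kinetochore and cytokinesis, 1 fell from E18 to P5 (Bub3, -0.46, adjusted p = 0.0337), and from P5 to Adult 2 rose and 11 fell, against 26.2% and 33.7% of all genes. Their median change from E18 to P5 was -0.33 and became -0.02 without E18 replicate 1. Cks1b, a small partner of cyclin-dependent kinases, fell from 15.8 ± 0.347 at P5 to 0.760 ± 0.368 FPKM in Adult (-3.27, adjusted p = 7.1e-05). Spc25, a kinetochore subunit, went the opposite way: it was 6.41 and 0.407 FPKM at E18, 0.759 and 0.832 at P5, and then 53.3 and 48.4 in Adult, a rise of 4.85 on the log2 scale from P5 (adjusted p = 0.00151).

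Among 26 tested regulators of G1 and S phase, 1 fell from E18 to P5 and 9 rose and 9 fell from P5 to Adult (26.2% and 33.7% of all genes), as against 1 and 14 with TPM and 12 and 5 with the protein-coding sum. The gene that fell from E18 to P5 was Cdkn1c (p57), an inhibitor known from cells that leave the cycle, at 42.8 ± 0.539 FPKM at E18, 5.30 ± 0.715 at P5 and 4.58 ± 0.234 in Adult (E18 to P5 -2.80, adjusted p = 0.00201). Of 13 tested p53 target genes, none was called from E18 to P5 (4 at an unadjusted p under 0.05, against 29.4% of all genes), where Cdkn1a rose, and 5 rose and 5 fell from P5 to Adult (26.2% and 33.7% of all genes). Among those that fell was Bbc3, a promoter of cell death (-1.67, adjusted p = 0.00273). For the 10 cohesin genes, 5 rose and none fell from P5 to Adult (26.2% and 33.7% of all genes), as against 0 and 5 with TPM and 3 and 0 without E18 replicate 1, so no direction is given.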

How the data were processed

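Polyadenylated RNA of 6 RGC libraries, 2 each at E18, P5 and 8 weeks, was sequenced as paired reads of 100 bases, per the labels' protocols. The deposited values are isoform FPKM from the authors. HISAT2, Cufflinks, Cuffdiff and mm10 are named in the submitters' processing notes, with no versions, and scaling between libraries is not given in the sources used here. In the deposited table, 0.0001 stands for 0 and every isoform reaches at least 1 FPKM in some library. Both P5 columns carry one header, so those libraries have no replicate number. A further 9 columns of per-sample values were not used here. Depth is unknown, since FPKM give no counts.

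Isoform FPKM were summed by symbol (0.0001 was set to 0 for isoforms), and log2(FPKM + 1) was fitted by age in limma 3.58.1 (R 4.3.3) with a variance trend, all 6 libraries and no replicate block. Genes or isoforms with a mean of at least 1 FPKM were tested (14390 and 34941), two-sided, with Benjamini-Hochberg adjustment in each comparison and a threshold of 0.05. Residual degrees of freedom were 3, to which limma's prior added 3.26 (genes) or 2.88 (isoforms). Tested on simulated data of 14390 genes, the fit of P5 against E18 found 48% of simulated log2 changes of 1 and 86% of those of 2, and 4 of its 138 calls were false. For Adult against P5 these were 52%, 84% and 5 of 141, and for Adult against E18 59%, 89% and 8 of 156. Noise was normal, and 100 genes were changed per size, all with a mean log2(FPKM + 1) above 2. Genes at lower levels, such as Top2a, Cdk1, Birc5 and Aurka, are thus not covered by these rates. Far fewer genes were changed than were called in the real comparisons with Adult, so the share of false calls there is not given by them.

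The genes of the group and all lists (6 of other genes, 9 of cell type markers) were chosen with earlier results of these data known. Every one of the 39 genes is accounted for, up to 3 genes with the smallest p are named per other list and comparison, and a gene named otherwise was picked after its values were seen. Alternatives were other pseudocounts, filters, scalings, isoform classes and variance models, fits of 2 ages, a replicate block and leaving out each library; those for isoforms and other lists, and the filter on the 5 libraries other than E18 replicate 1, were chosen after seeing the data. Gene positions, biotypes and overlaps come from GENCODE M21 (GRCm38), and promoters from RefSeq (GRCm38.p6), with windows chosen for print after values were seen. Python 3.11.15, pandas 2.3.3 and matplotlib 3.10.9 made tables and figures.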

Additional observations from a re-analysis of the deposited data

How the results depend on the processing

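Between E18 and P5 the call of Cdkn1a was lost without any library of those ages, and those of Cdk4 and Mcm7 without E18 replicate 1 or 2 or P5 library a but not without P5 library b. The 5 calls from P5 to Adult, and 6 of the 9 from E18 to Adult (Ccnd3, Cdk4, Cdkn1a, Mcm6, Mcm7, Rrm2), stood in each alternative in which the gene was tested. From E18 to P5, the genes that rose numbered 2 with TPM, and those that fell numbered 1 in a fit of only the 2 ages. Both counts moved when libraries were left out, the second in part through Top2a and Cdk1, which passed the filter through E18 replicate 1. From P5 to Adult, 3 rose after quantile normalization, 4 with the protein-coding sum, 2 in a fit of only the 2 ages and 1 to 2 when each library was left out, and 12 fell with TPM. From E18 to Adult, 1 rose with TPM and after quantile normalization and 1 to 2 when each library was left out, and 12 fell with TPM and 5 to 14 when each library was left out. A change turned sign in 40 of the values of single genes in the alternatives, and 4 of them were called with or without the alternative (Ccne2 in both comparisons with Adult, Rb1 and Cdkn1b, all with TPM). TPM gave from P5 to Adult Ccne2 -0.56, Rb1 -0.48, Cdkn1b -0.61, Pcna -0.45, Mcm2 -0.15, Mcm4 -0.64 and Ccna2 -0.0771, quantile normalization Ccne2 -0.0576 and Mcm4 -0.18, and the protein-coding sum Ccne1 0.0678, Rrm1 0.21 and Tyms 0.14. TPM also gave from E18 to Adult Ccne1 -0.07 and Ccne2 -0.0148, quantile normalization Cdkn1b 0.0165, and the protein-coding sum Cdkn1b 0.11, Gmnn 0.0136, Pcna 0.0277 and Rb1 0.20. Among changes from E18 to P5 that turned when a library was left out, the values went over these fits for Mcm4 from -0.72 to 0.0221, Mcm5 from -0.86 to 0.16, Tyms from -0.52 to 0.00282, Gmnn from -0.45 to 0.52, Top2a from -3.01 to 0.21, Ccna2 from -1.67 to 0.0886, Aurka from -0.64 to 0.24 and Birc5 from -1.93 to 0.20. For those from P5 to Adult they went for Mcm4 from -0.16 to 0.17, Tyms from -0.56 to 0.40 and Ccna2 from -0.099 to 1.08. For those from E18 to Adult they went for Mcm2 from -0.93 to 0.16, Mcm4 from -0.71 to 0.0278, Tyms from -0.82 to 0.14, Gmnn from -0.74 to 0.22, Ccna2 from -1.18 to 0.58 and Ccnd1 from -2.86 to 0.42. Without P5 library a, Gmnn was at -0.13 from E18 to P5 and Tyms at 0.18 from P5 to Adult, and Mcm4 from P5 to Adult was at -0.13 without Adult replicate 2 and 0.15 without Adult replicate 1. The library left out was E18 replicate 1 in 11 of the sign changes, E18 replicate 2 in 1, P5 library a in 3, P5 library b in 1, Adult replicate 1 in 1 and Adult replicate 2 in 4. With TPM, which lowers every Adult value by the larger Adult total, the shift of all genes is part of these values. Of the other values of single genes, 945 kept their direction and side of the threshold and moved by less than their SE or stayed called, 52 moved further without a call, 41 passed the threshold in an alternative and 28 lost it.

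Of the isoforms, from E18 to P5 none rose when any library was left out (0 to 0) and 1 fell with TPM. From P5 to Adult 1 rose with TPM and 1 to 3 when each library was left out, and 16 fell with TPM. From E18 to Adult 9 to 17 fell when each library was left out. The median difference between the E18 libraries, 0.55, lay between 0.56 and 0.64 under the other scalings and pseudocounts, and was 0.48 over the 20 genes with a mean of at least 1 FPKM outside E18 replicate 1. Where leaving out a library leaves an age with 1, that library is assumed to vary like the other ages. Other causes of these shifts were not tested.

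With the replicate number as a block, 1 gene rose and 7 fell from E18 to Adult, Ccne2 being lost (adjusted p = 0.0807 in limma). Deviations of same-numbered E18 and Adult libraries correlated at 0.0183 over genes. This rests on a single difference per age, so it cannot decide whether the numbers pair the libraries, and the labels do not say. No paired analysis was possible because the P5 columns carry no replicate numbers, for P5 against E18 and Adult against P5.

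Of the 35 listed genes, 15 were listed through E18 replicate 1 alone. Depth is unknown, so no statement is made on whether a gene listed at 0 was absent.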
